A study of Mus musculus with 64 samples.

Results

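Lungs of treadmill-trained mice that had lost Bmal1 in skeletal muscle were compared with lungs of trained mice that kept it. The comparison uses 6 of the 64 libraries in the series: 3 of trained knockout mice and 3 of trained vehicle mice, chosen by their labels. Every mouse in both groups carried the genotype Cre+:iMSBmal1 fl/fl, that is, floxed Bmal1 with a Cre allele. The knockout mice are labelled iMSBmal1KO, and the controls received vehicle, so the agent that induces the deletion and the deletion itself cannot be told apart. Training in both groups was 6 weeks of daily treadmill running, and the labels place tissue collection 48 hours after the last bout. The sources used here give no time of day. The 6 lung libraries of sedentary knockout and sedentary vehicle mice, with the same genotype and no training, enter the same model and serve for 1 further comparison. The labels do not say whether the 3 libraries of a group come from separate animals, so p-values here reflect only how far such libraries vary, which may be technical.

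BMAL1, listed here under its gene symbol Arntl, pairs with CLOCK to drive transcription from E-boxes, and the Period and Cryptochrome proteins it induces feed back on the pair. The deletion is aimed at skeletal muscle fibres, while the tissue measured here is lung. The lung is built of thin alveolar type 1 cells for gas exchange, type 2 cells that make surfactant, airway cells, a dense capillary bed and resident immune cells. In bulk RNA, fewer cells of a type and less RNA per cell cannot be told apart.

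The library labels fitted the tissue: transcripts of Scgb1a1 (club cells) averaged 41981 ± 15067 CPM in trained knockout lungs and 30225 ± 6847 CPM in trained vehicle lungs, and Ager (type 1 cells) averaged 2293 ± 623 and 2254 ± 341 CPM in the same order of groups (SD, n = 3 each). CPM are counts per megaread after scaling between libraries. Depth was 19.8 to 28.7 megareads in trained knockout libraries and 26.9 to 35.7 megareads in trained vehicle libraries. Trained knockout replicate 3 stood apart from the other 11 lung libraries. Its rank correlation with another library was at most 0.98, while each of the others reached at least 0.988 with some library. The clearest sign was transcript length. A length index, the mean log2 level of genes with long transcripts (5083 bases or more) minus that of genes with short ones (1749 bases or fewer), was 0.67, 0.58 and -0.24 in the trained knockout libraries, against 0.85, 0.76 and 0.87 in the trained vehicle libraries. All 3 trained knockout libraries lay below the trained vehicle libraries, replicate 3 by far the most. The sedentary libraries gave 0.82, 0.87 and 0.81 with the knockout, and 1.08, 0.79 and 0.69 with vehicle. Many results below, though not all, are therefore also given without trained knockout replicate 3 or with the index as a term in the model. The index comes from the same levels and stands apart between the trained groups. As a term it can therefore also absorb part of a group difference and lower the number of genes that pass.

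**Figure D1:**
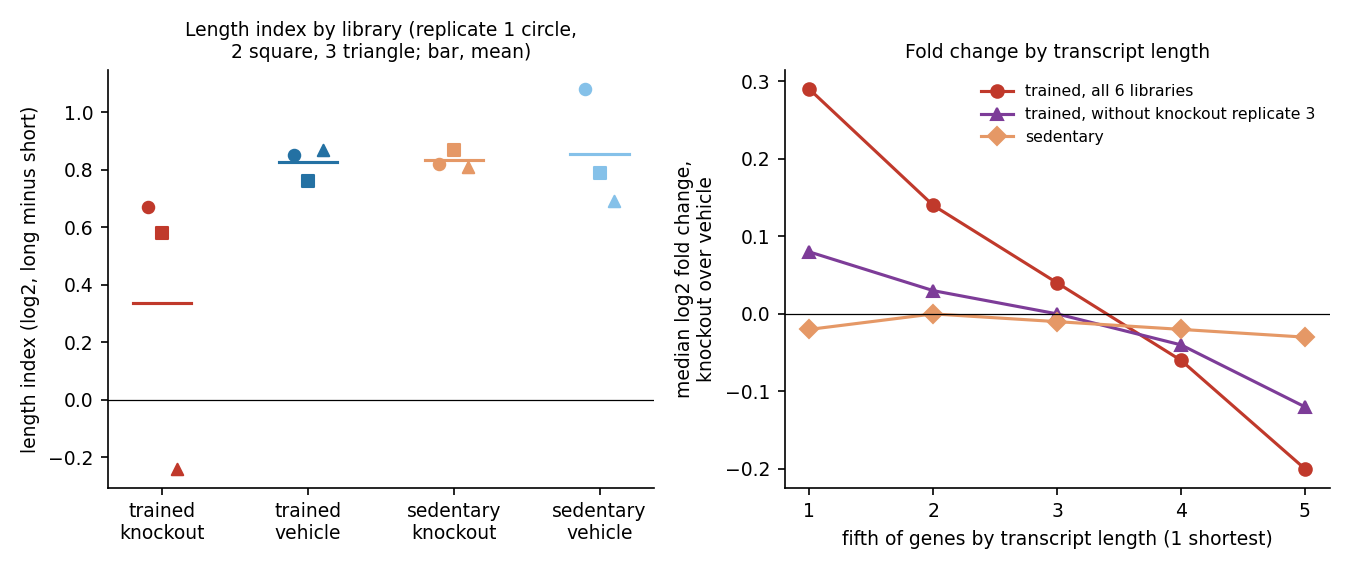
Left, length index (log2 scale) of each of the 12 lung libraries by group; right, median log2 fold change of knockout over vehicle lung in 5 groups of near-equal size, of genes ordered by transcript length. In trained lungs the median is 0.29 for the shortest and -0.20 for the longest transcripts, 0.08 and -0.12 without trained knockout replicate 3, and -0.02 and -0.03 in sedentary lungs.

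Across 16151 tested genes, edgeR's quasi-likelihood test called 0 genes at an adjusted p under 0.05 between trained knockout and trained vehicle lungs (0% of those tested). The smallest adjusted p was 0.282. At an unadjusted p under 0.05 there were 2620 genes, 16.2% of those tested, of which 1353 were higher (8.38%) and 1267 lower (7.84%) in trained knockout lungs. DESeq2, on the same counts, called 71 genes, 11 higher (0.157% of the 6989 genes it kept for adjustment) and 60 lower (0.858%). Without trained knockout replicate 3 edgeR again called 0 genes, and 1315 passed the unadjusted p. With the length index in the model it called 0, and 739 passed. Every gene named below therefore missed the edgeR threshold, and the values are given as a description of these libraries. Levels in all 3 trained knockout libraries exceeded those in all 3 trained vehicle libraries for 12.2% of the tested genes, and lay below them for 12.3%. Counts of list members whose groups do not overlap are read against these shares.

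Arntl, the targeted gene, lies at chr7:112806672-112913334 in the coordinates of the lung table. It stood at 3.26, 2.28 and 2.21 CPM in trained knockout lungs and at 3.23, 3.29 and 3.21 CPM in trained vehicle lungs. Trained knockout replicates 2 and 3 lay below all trained vehicle lungs, and replicate 1 lay within their range. The log2 fold change was -0.33 (SE 0.21), with an adjusted p of 0.408 by edgeR. In sedentary lungs the groups did not overlap, at 1.79, 1.70 and 1.95 CPM with the knockout and 2.88, 2.52 and 2.80 CPM with vehicle, a log2 fold change of -0.59 (SE 0.21). The difference between the trained and sedentary knockout effects was 0.25 (SE 0.30) and did not pass. At such low levels in a tissue where the deletion is not aimed, these values check the labels only weakly.

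Dbp, a transcription factor that BMAL1 and CLOCK drive through E-boxes and a standard readout of clock output, stood at 190, 178 and 243 CPM in trained knockout lungs, against 90.1, 113 and 90.2 CPM in trained vehicle lungs. All 3 knockout lungs lay above all 3 vehicle lungs, with a log2 fold change of 1.06 (SE 0.22). The value was 0.89 without trained knockout replicate 3 and 0.69 with the length index in the model. In sedentary lungs Dbp differed by 0.73 (SE 0.22), and the difference between the trained and sedentary effects, 0.33 (SE 0.31), did not pass. Bhlhe41 (DEC2), a repressor that competes at E-boxes, stood at 75.2, 68.4 and 61.4 CPM in trained knockout lungs, against 53.0, 51.5 and 53.7 CPM in trained vehicle lungs. These groups did not overlap either, with a log2 fold change of 0.37 (SE 0.10), 0.41 without replicate 3 and 0.46 with the index.

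Clock, the partner of BMAL1, stood at 49.1, 50.7 and 34.6 CPM in trained knockout lungs, against 64.1, 56.8 and 76.0 CPM in trained vehicle lungs, and Rora, a receptor that activates Arntl, at 58.0, 65.4 and 45.2 CPM, against 71.2, 67.7 and 86.4 CPM. Neither pair of groups overlapped. Both are long transcripts, 9698 bases for Clock and 10785 for Rora, and their log2 fold changes of -0.55 and -0.42 were -0.19 and -0.12 with the length index in the model. Clock differed by -0.42 (SE 0.19) in sedentary lungs, again without overlap, and Rora by -0.31 (SE 0.17), with overlap. The Rev-erb receptor gene Nr1d1, a repressor of Arntl, ranged from 95.4 to 145 CPM in trained knockout lungs and from 67.2 to 106 CPM in trained vehicle lungs, which overlap. Its log2 fold change was 0.49 (SE 0.24) there, and 0.8 (SE 0.24) in sedentary lungs, where the groups did not overlap. Of the 10 Period, Cryptochrome and partner genes, Bhlhe41 alone had groups apart. Per2, for example, ranged from 127 to 209 CPM in trained knockout lungs and from 186 to 227 CPM in trained vehicle lungs. Of the 10 output genes, Dbp was higher without overlap and Cys1 lower, at 46.2 ± 2.19 CPM in trained knockout lungs and 54.8 ± 4.73 CPM in trained vehicle lungs. Ciart, a repressor of the CLOCK and BMAL1 pair, averaged 20.0 ± 2.65 CPM in trained knockout lungs and 14.3 ± 2.92 CPM in trained vehicle lungs, and its groups overlapped. With the knockout in sedentary lungs, Ciart, Bhlhe41 and Cys1 were each higher without overlap, with log2 fold changes of 0.65, 0.24 and 0.35. For Cys1 that is the opposite direction to trained lungs.

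**Figure D2:**
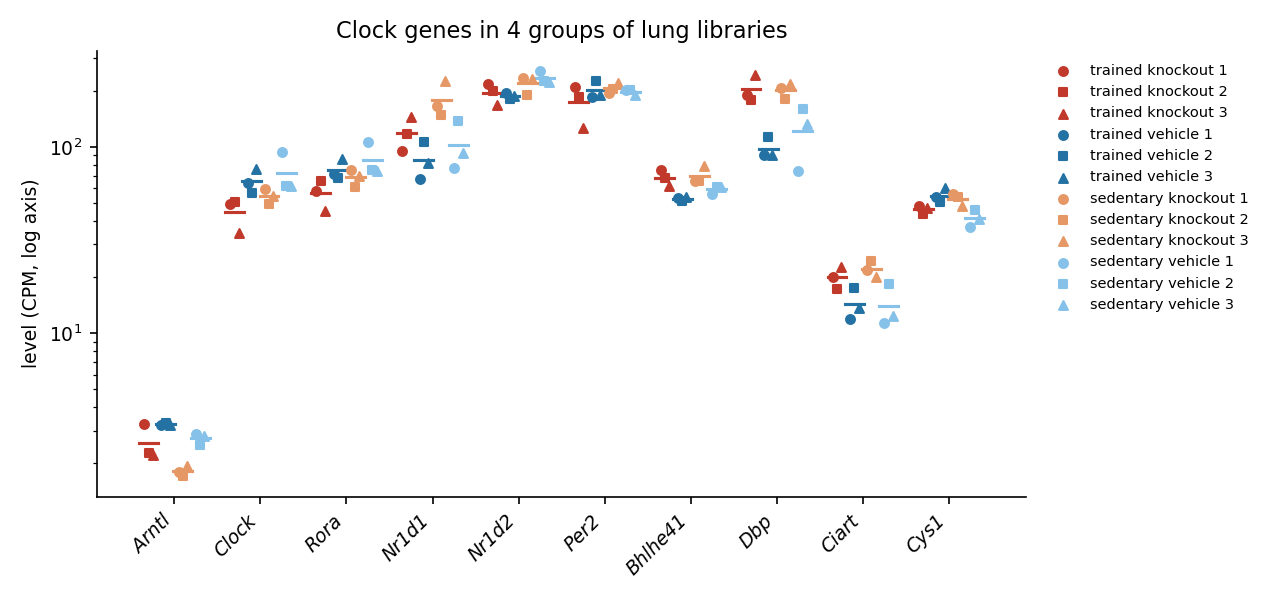
Levels of 10 clock genes (CPM, log axis) in each of the 12 lung libraries; points are libraries, the marker shape gives the replicate number and bars are group means. Dbp and Bhlhe41 are higher in all 3 trained knockout lungs than in all 3 trained vehicle lungs, and Clock and Rora lower.

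The E-box CACGTG was sought in promoter windows of 300 bases, 250 before to 50 after the gene start, from RefSeq on build GRCm38.p6. It is found in 7.15% of 32851 such windows, and it reads the same on both strands. The windows of Ciart and Bhlhe41 are shown because they hold it, in capitals, 3 times and 1 time. The Dbp window holds no CACGTG, which says only that these letters are not in that stretch.
Ciart, chr3:95882179-95882478, minus strand: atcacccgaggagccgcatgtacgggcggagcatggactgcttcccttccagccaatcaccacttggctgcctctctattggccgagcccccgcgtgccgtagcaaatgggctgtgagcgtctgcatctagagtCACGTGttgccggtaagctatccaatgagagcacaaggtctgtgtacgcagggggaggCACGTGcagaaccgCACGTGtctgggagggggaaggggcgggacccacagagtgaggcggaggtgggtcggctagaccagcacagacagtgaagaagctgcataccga
Bhlhe41, chr6:145865371-145865670, minus strand: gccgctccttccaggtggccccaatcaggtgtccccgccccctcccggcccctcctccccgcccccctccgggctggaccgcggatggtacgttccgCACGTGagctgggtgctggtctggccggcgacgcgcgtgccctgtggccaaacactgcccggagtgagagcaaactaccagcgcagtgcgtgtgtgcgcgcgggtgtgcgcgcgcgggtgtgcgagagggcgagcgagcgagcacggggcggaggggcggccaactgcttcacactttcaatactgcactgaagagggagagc

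Among the lists, the largest share of members with groups apart was in MHC class II antigen presentation, the set of genes by which dendritic cells, B cells and macrophages show peptides to helper T cells. Of its 10 genes, 8 were higher in all 3 trained knockout lungs than in all 3 trained vehicle lungs and 0 were lower, against shares of 12.2% and 12.3% over all genes. The median log2 fold change was 0.47, against 0.04 over all tested genes, and 9 of the 10 had an unadjusted edgeR p under 0.05, against 8.38% of all genes. Without trained knockout replicate 3 the median was 0.40, 8 genes were again higher without overlap (16.1% of all genes then were) and 3 passed the unadjusted p (2.89% of all genes). With the length index it was 0.45, and 2 passed (2.72% of all genes). The summed level of the list was 2870.3, 2849 and 3022 CPM in trained knockout lungs, against 2391, 2069 and 1889.9 CPM in trained vehicle lungs, with no overlap.

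H2-Aa, the alpha chain of I-A, stood at 473, 447 and 482 CPM in trained knockout lungs, against 401, 342 and 306 CPM in trained vehicle lungs. H2-Ab1, its beta chain, stood at 441, 429 and 430 CPM, against 353, 318 and 286 CPM. H2-Eb1, the beta chain of I-E, stood at 393, 362 and 364 CPM, against 289, 268 and 218 CPM. In each, the lowest knockout lung lay above the highest vehicle lung, with log2 fold changes of 0.42 (SE 0.16), 0.44 (SE 0.17) and 0.53 (SE 0.18). Cd74, the invariant chain that escorts class II molecules, stood at 1283, 1324 and 1455 CPM in trained knockout lungs, against 1124, 923 and 888 CPM in trained vehicle lungs. The genes for the editors of peptide loading, H2-DM, had higher values too. H2-DMa averaged 62.6 ± 4.03 CPM in trained knockout lungs and 41.5 ± 4.50 CPM in trained vehicle lungs, and H2-DMb1 66.5 ± 4.54 and 52.0 ± 1.85 CPM. H2-Oa and H2-Ob, which restrain loading and are typical of B cells, had log2 fold changes of 1.0 (SE 0.35) and 0.84 (SE 0.32), but for H2-Ob the groups were nearly in touch, with a lowest knockout value of 16.5 CPM against a highest vehicle value of 16.4 CPM.

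Both remaining members overlapped between groups. Ciita, the coactivator that switches class II genes on, stood at 46.8, 33.9 and 12.2 CPM in trained knockout lungs, against 34.1, 36.7 and 25.7 CPM in trained vehicle lungs. Its low value came from trained knockout replicate 3, and its log2 fold change of -0.06 was 0.30 without that library. Ctss, the protease that trims the invariant chain, stood at 73.9, 106 and 114 CPM in trained knockout lungs, against 83.6, 62.6 and 67.1 CPM in trained vehicle lungs.

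**Figure D3:**
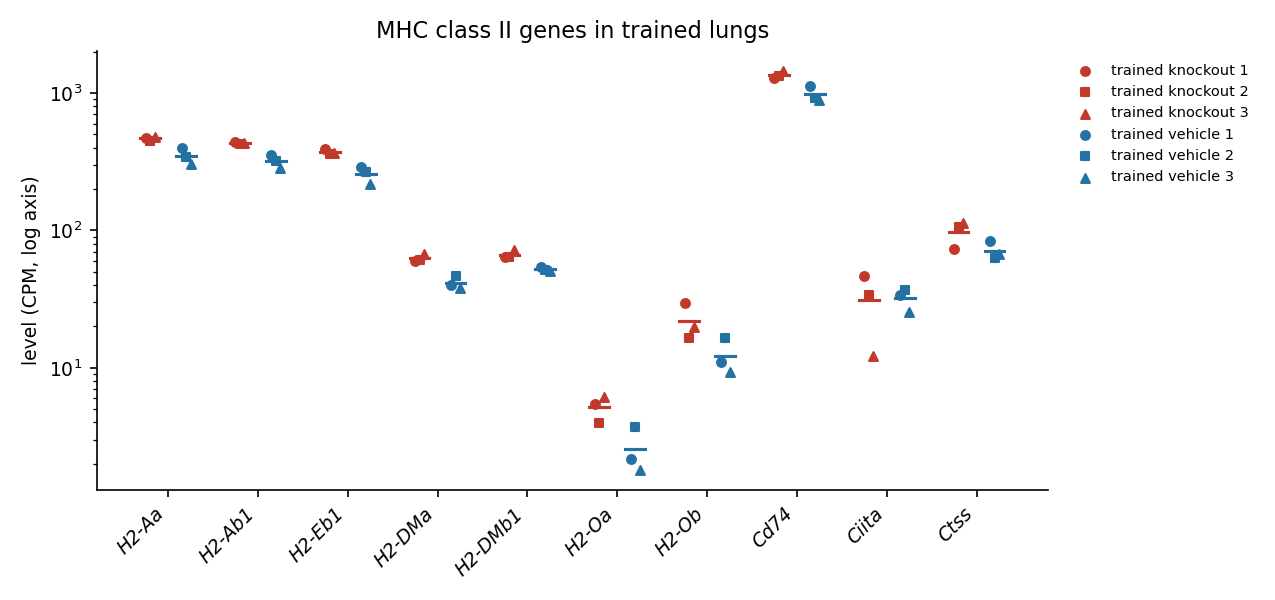
Levels of the 10 class II genes (CPM, log axis) in the 3 trained knockout and 3 trained vehicle lungs; points are libraries and bars are group means. In 8 genes every trained knockout point lies above every trained vehicle point, and Ciita and Ctss overlap.

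Class II promoters carry a Y box, an inverted CCAAT element that binds NF-Y, beside further boxes through which CIITA is recruited. The windows of 7 of the 10 genes, of the same kind and from the same RefSeq build as above, were searched on both strands for the Y box letters ATTGG, which 37.4% of all promoter windows hold. H2-DMa has 2 windows and each other gene 1. A match was found for 6 of the 7 genes, for H2-DMa in 1 of its 2 windows, so this count per gene and the share per window are not on the same base. The windows of H2-Eb1, H2-DMb1 and H2-Aa, of which every gene had higher values without overlap in trained knockout lungs, are shown with the matches in capitals.
H2-Eb1, chr17:34305617-34305916, plus strand: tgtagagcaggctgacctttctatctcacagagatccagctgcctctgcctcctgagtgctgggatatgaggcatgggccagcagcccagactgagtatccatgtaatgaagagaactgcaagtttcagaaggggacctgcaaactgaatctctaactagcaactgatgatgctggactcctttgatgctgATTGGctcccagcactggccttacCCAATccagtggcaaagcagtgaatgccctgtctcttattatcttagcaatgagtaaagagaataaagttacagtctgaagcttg
H2-DMb1, chr17:34152941-34153240, plus strand: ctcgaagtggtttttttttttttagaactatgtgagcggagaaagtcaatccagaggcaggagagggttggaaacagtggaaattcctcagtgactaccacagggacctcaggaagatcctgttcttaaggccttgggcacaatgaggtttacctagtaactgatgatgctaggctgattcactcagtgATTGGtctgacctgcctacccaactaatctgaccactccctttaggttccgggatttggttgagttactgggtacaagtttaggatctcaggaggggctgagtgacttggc
H2-Aa, chr17:34287774-34288073, minus strand: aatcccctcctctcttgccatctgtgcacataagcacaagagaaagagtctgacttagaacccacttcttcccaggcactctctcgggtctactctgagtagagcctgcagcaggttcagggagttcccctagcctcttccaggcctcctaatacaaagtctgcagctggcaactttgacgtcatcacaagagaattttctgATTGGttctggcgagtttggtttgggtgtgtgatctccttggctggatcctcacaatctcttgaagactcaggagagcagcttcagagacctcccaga

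The lists of cells that carry class II did not all have the same direction in trained knockout lungs. Of 14 alveolar macrophage markers, 8 had positive and 6 negative fold changes, with 1 higher without overlap and a median log2 of 0.03, which was -0.22 without trained knockout replicate 3 and -0.25 with the length index. Their summed level overlapped, at 535 to 935 CPM in trained knockout lungs and 601 to 791 CPM in trained vehicle lungs. Of 17 markers of interstitial macrophages and monocytes, 15 were positive, with 2 higher and 1 lower without overlap and a median of 0.45, which was 0.21 without that library and 0.14 with the index. Their summed level overlapped as well, at 2188 to 2477 CPM in trained knockout lungs and 2269.9 to 2540.2 CPM in trained vehicle lungs. Ace, which was lower without overlap in trained knockout lungs, makes up 55.25% of that sum. Without Ace the log2 difference of the sums moved from -0.05 to 0.23. The ranges were then 1033 to 1348 CPM in trained knockout and 936 to 1100 CPM in trained vehicle lungs, which still overlap. Of 12 dendritic cell markers, 5 were higher without overlap and 0 lower, with a median log2 fold change of 0.37 (0.39 without replicate 3). They include Ccr7, the receptor that guides dendritic cells to lymph nodes, at 13.97, 10.1 and 13.2 CPM in trained knockout lungs, against 9.35, 6.24 and 5.40 CPM in trained vehicle lungs. The chemokines Ccl17 and Ccl22, made by mature dendritic cells, averaged 4.72 ± 1.11 and 7.09 ± 0.942 CPM in trained knockout lungs and 2.10 ± 0.636 and 3.71 ± 0.961 CPM in trained vehicle lungs. Ccr7 also marks T cells, and both chemokines are in the cytokine list too. Zbtb46 and Clec9a, markers of conventional dendritic cells, had log2 fold changes of -0.47 and -0.02, and the summed level of the list overlapped, at 95.5 to 111 CPM in trained knockout lungs and 81.6 to 98.3 CPM in trained vehicle lungs. Clec9a makes up 37.3% of that sum. Without it the groups did not overlap, at 60.9 to 74.9 CPM in trained knockout and 46.9 to 58.4 CPM in trained vehicle lungs. None of these 12 markers was at 0 in any lung library. The part of these cells in the class II values was not tested.

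Of 14 B cell markers, 13 had positive fold changes, with a median log2 of 0.76, and 3 did not overlap. Cd79b, a signalling chain of the B cell receptor, stood at 28.5, 18.2 and 35.7 CPM in trained knockout lungs, against 10.7, 16.3 and 10.5 CPM in trained vehicle lungs. Trained vehicle replicate 2 was the highest of its group, and summed B cell markers were 216, 130 and 191 CPM in trained knockout lungs, against 71.3, 163 and 78.3 CPM in trained vehicle lungs, which overlap. Blk, a B cell kinase, and Fcer2a, the low-affinity IgE receptor CD23, did not overlap, with log2 fold changes of 1.21 (SE 0.39) and 1.15 (SE 0.39). The B cell median was 0.76 without trained knockout replicate 3 and 0.55 with the length index.

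T cell markers differed by less but more evenly. Their summed level was 157, 142 and 143 CPM in trained knockout lungs, against 121, 123 and 103 CPM in trained vehicle lungs. The groups do not overlap, which gives an exact two-sided permutation p of 0.1, the smallest that 3 against 3 allows. Of 20 markers, 18 had positive fold changes, 6 stood apart and 0 were lower without overlap, with a median log2 of 0.37 (0.42 without replicate 3 and 0.28 with the index). Zap70, a kinase of T cell receptor signalling, stood at 14.98, 11.2 and 12.2 CPM in trained knockout lungs, against 9.69, 9.22 and 8.68 CPM in trained vehicle lungs. Lck, the kinase upstream of it, averaged 12.2 ± 0.613 and 8.36 ± 1.26 CPM in the same order. Tcf7, the most abundant of the list, had nearly equal values.

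Neutrophil genes gave the largest median of these lists, a log2 of 1.08 over 12 genes, but with wide spread. S100a9, a subunit of calprotectin, stood at 23.1, 125 and 57.7 CPM in trained knockout lungs, against 34.2, 15.04 and 16.5 CPM in trained vehicle lungs. Csf3r, the G-CSF receptor, stood at 34.0, 104 and 48.0 CPM, against 31.4, 22.1 and 25.0 CPM. Trained knockout replicate 2 was the highest library in both, and Csf3r but not S100a9 had groups apart. Of the 12 tested genes, 2 did not overlap, and the summed level of the 15 genes of the list overlapped at 195 to 646 CPM in trained knockout lungs and 159 to 420 CPM in trained vehicle lungs. At an unadjusted edgeR p under 0.05, 8 of the 12 were higher (8.38% of all genes) and 0 lower. Without trained knockout replicate 3, 6 were higher (2.89% of all genes) and the median was 1.20. With the length index, 5 were higher (2.72% of all genes) and the median was 1.32.

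Of 26 cytokine and chemokine genes, 7 were higher without overlap and 0 lower, with a median log2 of 0.33 that was 0.13 without trained knockout replicate 3 and 0.07 with the length index. Il1b, the pyrogenic cytokine of myeloid cells, stood at 8.46, 22.8 and 10.8 CPM in trained knockout lungs, against 6.95, 4.02 and 4.53 CPM in trained vehicle lungs. Tnf averaged 2.30 ± 0.359 CPM and 1.14 ± 0.359 CPM, and the myeloid chemokine Ccl9 15.8 ± 4.04 and 9.35 ± 0.391 CPM. Ccr2, the receptor that draws monocytes into tissue, stood at 34.1, 51.7 and 31.3 CPM in trained knockout lungs, against 29.2, 26.0 and 23.2 CPM in trained vehicle lungs. Of 23 interferon-stimulated genes 5 were higher and 2 lower without overlap, and the median of 0.26 was 0.12 without replicate 3.

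**Figure D4:**
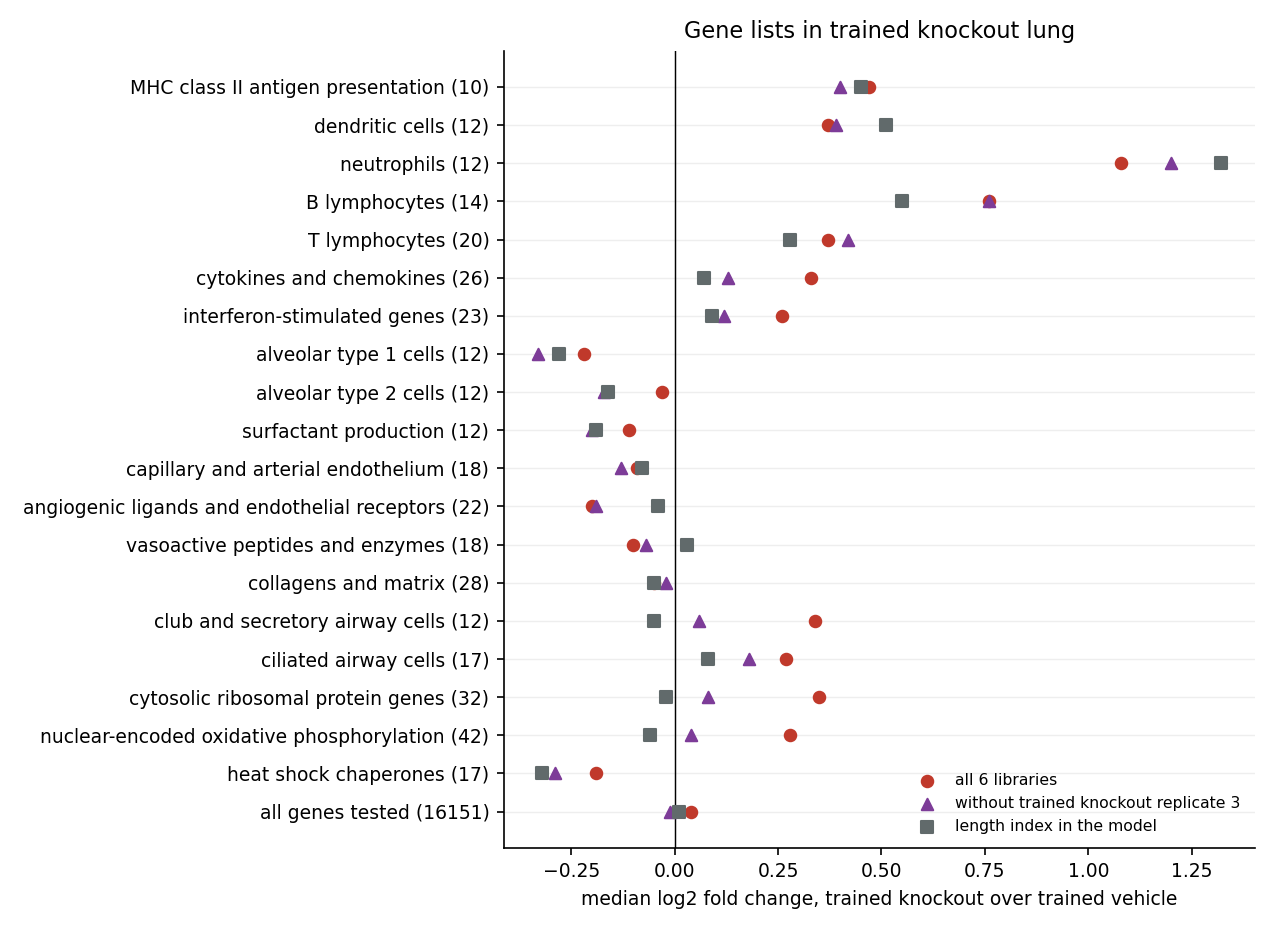
Median log2 fold change of trained knockout over trained vehicle lung for 19 gene lists and for all tested genes (number of genes tested in brackets), with all 6 libraries, without trained knockout replicate 3, and with the length index in the model. The class II, dendritic cell, neutrophil, B cell and T cell medians remain above 0.2 and the type 1 cell median below -0.2 in all 3, while the ribosomal protein and oxidative phosphorylation medians move close to 0 in both alternatives.

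Genes of alveolar type 1 cells, the flat cells across which gas is exchanged, had mixed directions. Of 12 markers, 8 had negative and 4 positive fold changes, and edgeR called 0. In all, 6 were lower in all 3 trained knockout lungs than in all 3 trained vehicle lungs and 0 were higher, with a median log2 of -0.22. Clic5, a chloride channel protein of these cells, stood at 976, 1040 and 814 CPM in trained knockout lungs, against 1525, 1232 and 1524 CPM in trained vehicle lungs. Akap5, an anchor of protein kinase A, stood at 430, 464 and 358 CPM, against 704, 635 and 723 CPM, and Rtkn2, a scaffold protein of the rhotekin family, at 249, 228 and 209 CPM, against 335, 308 and 341 CPM. The groups stood clear of each other in all 3 genes, with log2 fold changes of -0.60 (SE 0.19), -0.72 (SE 0.17) and -0.52 (SE 0.14). Emp2, Spock2 and Cav1 were also lower without overlap. DESeq2 called Akap5 and Rtkn2 of this list, and 5 of the 12 were lower at an unadjusted edgeR p under 0.05. Without trained knockout replicate 3, 5 were again, against 5.16% of all genes, and with the length index in the model 2 were, against 1.85% of all genes. With the index the log2 fold changes were -0.29 for Clic5, -0.46 for Akap5, -0.36 for Rtkn2, -0.37 for Emp2, -0.28 for Spock2 and -0.15 for Cav1.

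Ager, the most abundant, stood at 1959, 1909 and 3012 CPM in trained knockout lungs, against 2459, 1861 and 2443 CPM in trained vehicle lungs. Ager has short transcripts (1384 bases) and its high value came from trained knockout replicate 3. The list's median was -0.33 without that library, when 8 members lay below without overlap (15.2% of all genes then did), and -0.28 with the length index. The summed level of the list overlapped, at 8910 to 11132 CPM in trained knockout lungs and 9718 to 12032 CPM in trained vehicle lungs.

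Lama3, the laminin alpha 3 chain of epithelial basement membranes, stood at 69.6, 78.1 and 59.3 CPM in trained knockout lungs, against 157, 103 and 157 CPM in trained vehicle lungs, a log2 fold change of -1.01 (SE 0.20) that was -0.94 without replicate 3 and -0.72 with the index. Col4a1 and Col4a2, the main chains of collagen IV, averaged 348 ± 42.0 and 426 ± 38.6 CPM in trained knockout lungs and 459 ± 82.1 and 551 ± 91.7 CPM in trained vehicle lungs, and overlapped. The 28 collagen and matrix genes as a list had a median of -0.05, and 1 was higher and 1 lower without overlap.

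Type 2 cells showed no uniform difference. Of 12 markers and 12 surfactant genes, lists that share most of their members, 0 had groups apart in either direction. Fold changes were negative in 7 markers and 9 surfactant genes, with medians of -0.03 and -0.11. The medians were -0.17 and -0.20 without trained knockout replicate 3, and -0.16 and -0.19 with the length index. At an unadjusted edgeR p under 0.05, 1 marker and 3 surfactant genes were lower (7.84% of all genes) and 0 higher. Without replicate 3, 0 and 2 were lower (5.16% of all genes), and with the index 0 and 2 (1.85%). Abca3, which pumps surfactant lipid, stood at 330, 359 and 267 CPM in trained knockout lungs, against 444, 333 and 464 CPM in trained vehicle lungs. Fasn, the fatty acid synthase, stood at 315, 430 and 465 CPM, against 598, 429 and 637 CPM. In both, trained vehicle replicate 2 lay with the knockout lungs.

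Endothelial markers had negative fold changes in 11 of 18 genes. Summed capillary and arterial markers were 5881, 6349 and 5813 CPM in trained knockout lungs, against 7123, 6673 and 7175 CPM in trained vehicle lungs, and did not overlap (exact two-sided permutation p = 0.1). Of the 18 markers, 5 were lower and 1 higher without overlap. Ptprb (VE-PTP), a phosphatase of endothelial junctions, stood at 885, 864 and 557 CPM in trained knockout lungs, against 1163, 1085 and 1278 CPM in trained vehicle lungs, and Cdh5 (VE-cadherin) averaged 507 ± 55.0 and 656 ± 12.4 CPM. Of 22 angiogenic ligands and receptors, 10 were lower without overlap and 1 higher, with a median log2 of -0.20. Kdr, the main VEGF receptor, stood at 347, 383 and 277 CPM, against 435, 434 and 423 CPM. Vegfa, its ligand, averaged 1179 ± 150 CPM in trained knockout lungs and 1406 ± 89.3 CPM in trained vehicle lungs. Edn1, which encodes the vasoconstrictor endothelin, stood at 46.0, 36.8 and 40.3 CPM, against 55.8, 50.8 and 52.2 CPM.

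The angiogenic genes had a median length of 3743 bases, against 2833 over all tested genes, and their median fold change was -0.19 without trained knockout replicate 3, where 10 again lay below, but -0.04 with the length index in the model. Kdr, at 5916 bases, had a log2 fold change of -0.36, and of -0.11 with the index. Ptprb, at 11912 bases, had -0.61, and -0.17 with the index. Cdh5 had -0.37, and -0.19 with the index. Vegfa had -0.25, and -0.07 with the index, and Edn1 had -0.37, and -0.22 with the index. Several short endothelial transcripts, such as Cldn5 and Egfl7, had positive values, of 0.14 and 0.24. The part of transcript length in these values was not tested beyond that model.

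Short transcripts of the ribosome and the respiratory chain had positive medians that were near 0 without trained knockout replicate 3. All 32 cytosolic ribosomal protein genes had positive fold changes, with a median log2 of 0.35 and 11 groups apart. Rps24, for instance, stood at 284, 290 and 474 CPM in trained knockout lungs, against 236, 257 and 211 CPM in trained vehicle lungs. The median was 0.08 without replicate 3 and -0.02 with the index, and the median transcript was 741 bases. Without replicate 3, 11 of the 32 again lay above all trained vehicle lungs and 0 below, against 16.1% of all genes above. All 42 nuclear-encoded oxidative phosphorylation genes were likewise positive, with a median of 0.28 that became 0.04 without replicate 3 and -0.06 with the index. Uqcrfs1, the Rieske subunit of complex III, averaged 108 ± 10.9 CPM in trained knockout lungs and 83.3 ± 5.06 CPM in trained vehicle lungs.

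The 12 club cell and 17 ciliated cell markers had medians of 0.34 and 0.27, which were 0.06 and 0.18 without trained knockout replicate 3. Scgb3a2, a club cell secretoglobin, stood at 905, 1038 and 1930 CPM in trained knockout lungs, against 634, 985 and 633 CPM in trained vehicle lungs, and Tppp3, of ciliated cells, at 526, 551 and 816 CPM, against 426, 492 and 484 CPM. Replicate 3 was the highest library in both.

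Among stress and metabolic lists, heat shock chaperones had negative values in 13 of 17 genes, with a median log2 of -0.19 and -0.29 without replicate 3. Hspa8, the constitutive HSP70, stood at 636, 843 and 926 CPM in trained knockout lungs, against 997, 1063 and 956 CPM in trained vehicle lungs. Of 22 immediate early genes 5 were higher without overlap and 0 lower, among them Atf3 at 11.7, 11.9 and 10.2 CPM, against 6.88, 9.42 and 6.38 CPM. Sedentary lungs had 11 of the 22 higher without overlap (10.5% of all genes were), with a median log2 of 0.36, against 0.17 in trained lungs. Atf3 differed by 0.57 in trained and by 0.83 in sedentary lungs. Cyp1a1, the enzyme induced through the aryl hydrocarbon receptor, stood at 20.1, 13.4 and 13.7 CPM in trained knockout lungs, against 25.0, 55.6 and 25.3 CPM in trained vehicle lungs, without overlap. P4ha1, a prolyl hydroxylase of collagen, averaged 79.9 ± 6.73 and 104 ± 9.49 CPM in the same order.

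Markers of tissues that adjoin the lung or lie in the chest varied within both groups. Summed cardiac muscle markers were 1417, 2007 and 1525 CPM in trained knockout lungs, against 919, 2544 and 891 CPM in trained vehicle lungs, and summed brown adipocyte markers 59.3, 76.5 and 152 CPM, against 41.8, 102 and 47.4 CPM. Summed skeletal muscle markers were 52.8 to 83.8 CPM in trained knockout lungs and 57.1 to 77.3 CPM in trained vehicle lungs, and overlapped.

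The 12 genes with the smallest p in each direction had an edgeR adjusted p of 0.282, and in all 24 the groups did not overlap. They were picked by their p in this same contrast, so the lack of overlap follows largely from that choice. Over all tested genes, the shares without overlap were 12.2% higher and 12.3% lower. The 12 with higher values had transcripts of 499 to 4015 bases (median 1858), and the 12 with lower values had transcripts of up to 12134 bases (median 6290). Slfn2, a Schlafen gene that keeps lymphocytes quiescent, stood at 48.6, 54.6 and 55.5 CPM in trained knockout lungs, against 34.3, 30.6 and 27.4 CPM in trained vehicle lungs. Clec12a, an inhibitory lectin of myeloid cells, averaged 12.2 ± 2.06 CPM and 7.18 ± 1.12 CPM, and S100a4, a calcium-binding protein of motile cells, 23.2 ± 5.66 and 10.9 ± 1.44 CPM. Endog (mitochondrial endonuclease G), Rac3 (a small GTPase), Ctu2 (tRNA thiolation), Aspg (asparaginase), Mia and Rec8 (a meiotic cohesin) had log2 fold changes of 0.62 to 1.25. The antisense gene Phtf1os had the largest, 1.90 (SE 0.39), but reads from it and from its sense partner cannot be told apart without strand.

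Daam2, a formin of Wnt signalling and the gene with the smallest p, stood at 21.5, 24.6 and 21.4 CPM in trained knockout lungs, against 33.8, 33.3 and 33.8 CPM in trained vehicle lungs. Its log2 fold change was -0.58 (SE 0.10), and it was -0.58 without replicate 3 and -0.55 with the index. Eif5b, a translation initiation factor, stood at 93.5, 91.6 and 83.8 CPM, against 116, 128 and 121 CPM, and Polr2a, the largest subunit of RNA polymerase II, at 129, 145 and 112 CPM, against 171, 190 and 194 CPM. Hipk2, a stress-activated kinase, stood at 19.0, 25.7 and 8.09 CPM, against 47.9, 43.9 and 55.6 CPM, a log2 fold change of -1.49 (SE 0.30) that was -0.86 with the index. Tln2 (talin 2), Hivep1, Adamtsl4 and Elfn1 had log2 fold changes of -0.42 to -0.61. Srp54b and Srp54c are near-identical copies that differed in opposite directions, at -0.81 and 0.87, and are uncertain because reads may be split between them.

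The same contrast in sedentary lungs shares no library with the trained one, and edgeR called 0 of 16151 genes there, with 2200 at an unadjusted p under 0.05 (6.27% higher and 7.36% lower) and 244 called by DESeq2. For the difference between the trained and sedentary knockout effects edgeR likewise called 0 genes, with 2451 at an unadjusted p under 0.05 (8.13% positive and 7.05% negative) and 294 called by DESeq2. Of 14 B cell markers, 13 had a positive difference at an unadjusted p under 0.05. Their median log2 fold change was 0.76 in trained and -1.0 in sedentary lungs. Cd79b differed between the contrasts by 1.95 on the log2 scale. Of 20 T cell markers 10 had a positive difference at that level, with medians of 0.37 and -0.46.

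Of 22 angiogenic genes 11 had a negative difference at an unadjusted p under 0.05, with medians of -0.20 in trained and 0.25 in sedentary lungs, and of 18 capillary and arterial markers 8 did, with medians of -0.09 and 0.36. Summed levels of both lists overlapped in sedentary lungs. Angiogenic genes summed to 5844 to 6501 CPM with the knockout and 4676 to 6356 CPM with vehicle. Capillary and arterial markers summed to 6366 to 7426 and 4567 to 6785 CPM in the same order. Sedentary vehicle replicate 3 was the lowest sedentary library in both. Acvrl1 (ALK1), a BMP receptor of endothelium, stood at 588, 697 and 679 CPM in trained knockout and 713, 836 and 719 CPM in trained vehicle lungs, and at 686, 763 and 693 CPM in sedentary knockout and 566, 532 and 395 CPM in sedentary vehicle lungs. Of the 10 class II genes 5 had a positive difference at that level, with medians of 0.47 and -0.01. H2-Eb1 stood at 254, 407 and 271 CPM in sedentary knockout lungs and 264, 369 and 315 CPM in sedentary vehicle lungs, which overlap. The summed B cell markers of sedentary vehicle lungs, 177, 382 and 516 CPM, exceeded those of the trained vehicle lungs in all 3 libraries. Summed hepatocyte markers ranged from 10.3 to 32.3 CPM in sedentary knockout lungs and from 11.2 to 137 CPM in sedentary vehicle lungs. Without Cyp2e1, the most abundant of them over all libraries, they ranged from 1.996 to 2.055 CPM in sedentary knockout lungs and from 1.63 to 32.3 CPM in sedentary vehicle lungs, with the highest value in replicate 2. Their part in the difference was not tested.

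**Figure D5:**
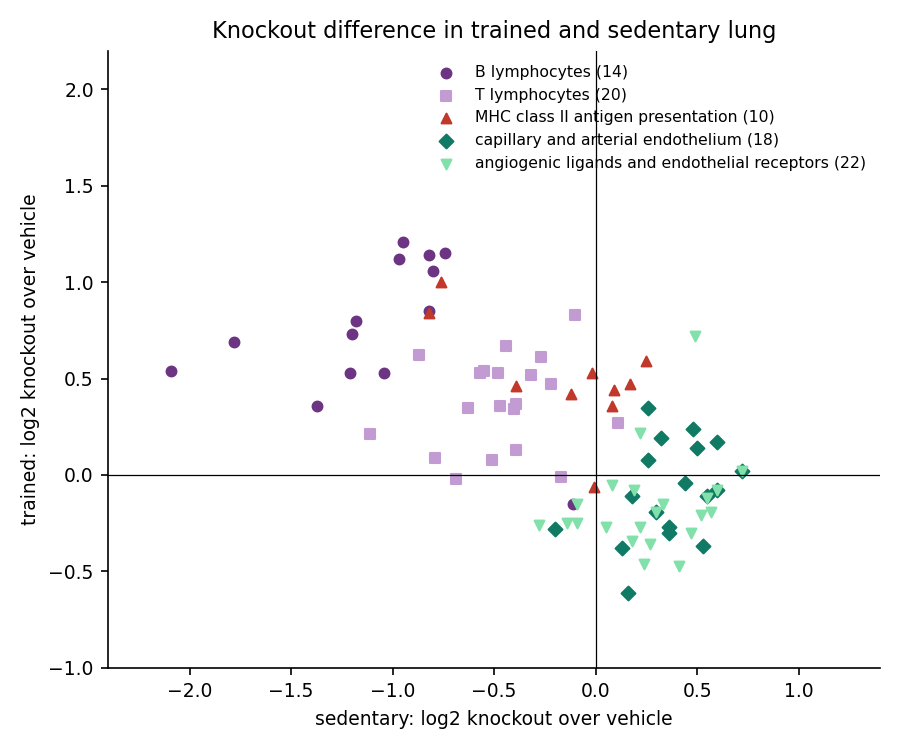
Each point is a gene of 5 lists: its log2 fold change of knockout over vehicle in trained lung (vertical axis) against that in sedentary lung (horizontal axis), with the number of genes tested in brackets. Of the B cell genes, 13 of 14 lie at upper left, with list medians of 0.76 and -1.0, and most angiogenic genes lie at lower right, with medians of -0.20 and 0.25. With the length index, which is not used in this figure, the trained medians are 0.55 for B cell and -0.04 for angiogenic genes.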

How the data were processed

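RNA was isolated with Trizol and a spin-column kit and sequenced from an Illumina library, per the labels' protocols. The submitters' processing notes list Partek, STAR 2.7.8a, and both GRCm39 and mm10 as builds, with no roles. The deposited lung table holds estimated counts per transcript, although the labels call the values CPM: 71% are not whole and library totals differ. Transcript length, a further column deposited by the authors, was averaged per gene by abundance. Of 17756 genes matched by symbol to the GRCm38 annotation, 1.53% lie within their gene there, so its coordinates are not on that build, and the sources used here do not name the one they follow. The table has 34950 transcript rows of 18415 symbols, and 0 mitochondrially encoded ones. Of these rows, 36 repeat an earlier identical row, and they were kept in the sums per symbol.

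Estimated counts were summed per symbol and rounded. In edgeR 4.0.16 (R 4.3.3) all 12 lung libraries were fitted with a mean per group, TMM factors, filterByExpr and the quasi-likelihood test, with Benjamini-Hochberg adjustment over 16151 genes. An SE is the fold change divided by the square root of F. Summed list levels were compared by an exact permutation test. The fits were tested on simulated data. Depth per library, 18.7 to 35.7 megareads, limits the precision of genes of low level.

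Alternatives were DESeq2 1.42.0, RLE factors, no filter, a mean of at least 1 CPM, a replicate block, the 2 groups alone, rounding before summing and leaving out each library. The length index (genes of at least 8 CPM, 2273 at each end), as a model term, and list counts without trained knockout replicate 3 were added after the data were seen. Deviations of same-numbered trained knockout and vehicle libraries correlated at 0.14, -0.05 and -0.11, and those of differently numbered ones at -0.19 to 0.16. In sedentary lungs same-numbered ones correlated at 0.11, 0.30 and 0.39, and differently numbered ones at -0.32 to 0.09. With 3 libraries per group, such values cannot settle whether the numbers pair libraries.

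The comparison and the 58 gene lists were chosen with earlier results of these data known. Arntl was named always, then the 12 smallest p of each direction at 2 CPM or more (predicted genes and pseudogenes left out), 2 genes per list, and markers of cell types whose summed level did not overlap; further members were named after their values were seen. A gene that this rule selects is not reported here. Heart, liver and fat files are not analysed here.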

Additional observations from a re-analysis of the deposited data

Results flagged for a closer look

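Summed cytosolic ribosomal protein genes moved in opposite directions, without overlap, with the knockout in trained and in sedentary lungs. The mean log2 difference of the sums was 0.32 in trained lungs (6968, 7460 and 11022 CPM with the knockout, against 6743, 6708 and 6578 CPM with vehicle). In sedentary lungs it was -0.22 (6612, 6046 and 6396 CPM with the knockout, against 6945, 7498 and 7822 CPM with vehicle). The difference between these sums was not tested. Trained knockout replicate 3, whose length index was -0.24, was the highest library. By gene, 18 of 32 had a positive difference at an unadjusted edgeR p under 0.05, against 8.13% of all genes.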

How the results depend on the processing

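The count of 0 called genes was unchanged in the trained comparison under every edgeR alternative and for each library left out (0 to 0). DESeq2 called 71 genes there, 244 in the sedentary comparison and 294 for the difference between the contrasts. That difference ranged from 0 to 11 called genes as libraries were left out, 11 being without sedentary vehicle replicate 1. With a replicate block edgeR called 0 genes in each of the 3 comparisons, so blocking by replicate number changed no call. At an unadjusted p the trained count was 1315 without trained knockout replicate 3, 1219 without trained vehicle replicate 3, 1714 without trained vehicle replicate 1 and 739 with the length index. The cause was not tested.

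For 96 genes examined singly, 1287 of 1311 alternative values kept their direction and side of the threshold, and 15 were past it, all by DESeq2. Signs turned in 9: Ager had -0.35 with the length index, -0.25 without trained knockout replicate 3 and -0.11 without trained vehicle replicate 2; Ciita had 0.53, 0.30 and 0.03 in the same settings. Nr1d2 had -0.03 without trained knockout replicate 1. With libraries left out, Ager ranged from -0.25 to 0.14, Ciita from -0.49 to 0.30 and Nr1d2 from -0.03 to 0.13. Also, with the length index Per2 had 0.06 and Scgb1a1 -0.00. Without the most abundant gene, the log2 differences of summed levels moved to 0.03 for immediate early genes, -0.11 for hypoxia-responsive genes and -0.15 for capillary and arterial endothelium.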

Other observations

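Megakaryocyte and platelet genes were higher without overlap in 3 of 13 trained knockout members and lower in 0, with a median log2 of 0.21. That median was 0.13 without trained knockout replicate 3 and 0.21 with the length index. Their summed level overlapped, at 129 to 159 CPM in trained knockout and 95.5 to 150 CPM in trained vehicle lungs. Sedentary lungs had 6 of the 13 higher without overlap (10.5% of all genes were), with a median of 0.64. Gp1bb, a chain of the platelet receptor for von Willebrand factor, stood at 7.61, 8.87 and 13.5 CPM in trained knockout lungs, against 4.66, 6.38 and 6.53 CPM in trained vehicle lungs. Hypoxia-responsive genes were higher in 2 and lower in 3 of 19 without overlap, and their summed level was lower in all trained knockout lungs, at 5233 to 5745 CPM, against 6295 to 6633 CPM in trained vehicle lungs. Epas1 makes up 60.5% of that sum. The 10 Schwann and neuronal genes tested all had positive values, with a median of 0.50; the 14 listed genes summed to 23.7 to 26.8 CPM in trained knockout lungs and 12.6 to 25.8 CPM in trained vehicle lungs.

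Rn45s, the precursor of ribosomal RNA, averaged 611 CPM in trained knockout lungs and 316 CPM in trained vehicle lungs, a log2 fold change of 0.95 (SE 0.23), and was called by DESeq2. It was named after its values were seen.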
